A study of Mus musculus with 29 samples.

Results

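The genes described here are those of major histocompatibility complex (MHC) class I and class II antigen presentation in mouse bladder urothelium. They were taken by symbol from each table of normalized counts: every symbol that begins with H2- apart from pseudogene rows, which gave 42 genes, and 11 further genes named outright, namely B2m, Tap1, Tap2, Tapbp, Psmb8, Psmb9, Psmb10, Nlrc5, Cd74, Ciita and Erap1. This made 53 of the 35199 genes in a table, of which 38 had enough signal to be tested in at least 1 comparison. The rule used no measured value, although it also takes in H2-Ke6, which lies within the H2 region and encodes the steroid dehydrogenase Hsd17b8. The study asked what a constitutively active Pparg does to basal cells of the urothelium, at homeostasis and in tumors driven by a carcinogen. RNA-seq libraries were made from Gfp+ basal cells sorted 4 days after tamoxifen, from 4 controls and 5 K5VP16;Pparg+/- mutants, and from tumor cells taken by laser capture, namely 3 basal tumors of control mice (wild type in the labels, while the study's text names control tumors as VP16;Pparg fl/fl in some places and K5;mTmG in others) and, from K5VP16;Pparg+/- mice, 3 luminal tumors, 3 luminal domains (titled Top) and 3 basal-like domains (titled Bottom) of mixed lesions.

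Mutants carried Pparg1 fused to the VP16 activation domain with an internal ribosome entry site and EGFP in Rosa26, transcribed from a CAG promoter once Cre had removed a stop cassette, and Cre-ERT2 was driven by the Krt5 promoter, which is active in basal cells. The sorted controls are wild type in the labels and K5;mTmG in the methods, where Gfp comes from the mTmG reporter, and the sorted mutants carried mTmG too. All tumors came from mice given 5 months of BBN, a nitrosamine that causes bladder cancer, in the drinking water. The sorted cells came from mice given none. In the tumor experiment, the study gave tamoxifen to mutants and controls alike, into the bladder under ultrasound guidance, after an initial period of BBN. Tumors were examined 4 months after tamoxifen, and the sample titles read 4M. The labels give no age, strain or MHC haplotype. According to the methods, the transgene was made in hybrid ES cells of 129 and C57BL/6 origin and bred to C57BL/6N, and the Krt5CreERT2 line is named as an FVB strain. C57BL/6 and 129 mice carry haplotype H2b and FVB mice H2q, so libraries may differ in H2 alleles, which the reference transcripts, of C57BL/6 origin, need not fit equally well. The part of haplotype in the values below was not tested.

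Class I molecules are present on nearly all nucleated cells. A heavy chain (H2-K and H2-D are the classical ones, while the H2-Q, H2-T and H2-M chains are called non-classical) pairs with the light chain B2m and shows peptides made in the cytosol to CD8 T cells. Peptides are cut by the proteasome, whose inducible subunits Psmb8, Psmb9 and Psmb10 form the immunoproteasome, carried into the endoplasmic reticulum by Tap1 and Tap2, trimmed by Erap1 and loaded with the help of tapasin (Tapbp). Class II molecules, made of an alpha and a beta chain (H2-Aa with H2-Ab1, H2-Ea with H2-Eb1), are typical of dendritic cells, macrophages and B cells and present peptides from endosomes to CD4 T cells. The invariant chain Cd74 guides them there, H2-DM exchanges the peptide and H2-O restrains H2-DM. Interferon gamma induces class II in other cells, epithelium included, through the transactivator Ciita, and raises class I through Nlrc5, and both act at promoters with a shared set of boxes.

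Of the 53 genes, 47 lie on chromosome 17 between bases 33919478 and 37483554 of GRCm38.p6, the RefSeq assembly used for positions. RefSeq promoter windows, here the 250 bases before a start site, were matched by symbol for 38 of them. Both strands were searched for 5 motifs: GATTGG (the inverted CCAAT or Y box), TGACGTCA (a cyclic AMP response element, also the core of the X2 box), an X box (the capitals that begin at -91 in H2-Eb1, with any base as the second letter), a kappa B site (the capitals at -171 in H2-D1) and an interferon-stimulated response element (the capitals at -139 in B2m, with any bases as the fifth and the sixth letters). GATTGG was found in windows of 28 of the 38 genes and in 14.6% of all 32851 windows, the X box in H2-Eb1 and H2-DMb1 and in 0.0244% of all, and TGACGTCA in H2-Aa and in 1.55% of all. The kappa B letters were found in H2-D1, H2-K1 and H2-Q6 and in 0.0304% of all windows, and the interferon element in B2m, H2-T22 and H2-T23 and in 2.98% of all. A gene was counted if any of its windows matched, whereas the percentages count single windows, so the 2 are not the same measure. H2-K1 is among the 28 genes through a window that is not shown. A match is a description of the letters, not a bound site. The windows shown belong to the class II and class I genes whose values are given below, and GATTGG can be read in windows of both classes.

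Matches are in capitals in the 7 windows that follow, written 5′ to 3′ along the gene, and no 2 matches overlap. The class II windows are H2-Aa at chr17:34287824-34288073 (minus strand), H2-Eb1 at chr17:34305617-34305866 (plus strand) and H2-DMb1 at chr17:34152941-34153190 (plus strand).
H2-Aa: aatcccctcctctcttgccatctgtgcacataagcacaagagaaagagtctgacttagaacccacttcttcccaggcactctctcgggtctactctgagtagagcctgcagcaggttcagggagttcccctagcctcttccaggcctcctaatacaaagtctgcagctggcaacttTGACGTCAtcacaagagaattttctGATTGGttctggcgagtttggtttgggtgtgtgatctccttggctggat
H2-Eb1: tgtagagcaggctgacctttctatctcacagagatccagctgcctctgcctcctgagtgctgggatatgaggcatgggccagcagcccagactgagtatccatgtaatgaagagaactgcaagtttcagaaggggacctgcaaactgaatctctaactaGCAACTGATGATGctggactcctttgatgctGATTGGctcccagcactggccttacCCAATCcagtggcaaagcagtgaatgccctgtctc
H2-DMb1: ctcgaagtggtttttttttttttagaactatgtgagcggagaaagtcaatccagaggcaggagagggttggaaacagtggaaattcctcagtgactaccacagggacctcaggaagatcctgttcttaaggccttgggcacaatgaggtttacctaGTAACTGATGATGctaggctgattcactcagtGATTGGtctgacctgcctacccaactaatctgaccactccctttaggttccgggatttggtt
Counted from the start site, GATTGG begins at -49 in H2-Aa, -60 in H2-Eb1 and -62 in H2-DMb1, and the X box match at -91 in H2-Eb1 and -94 in H2-DMb1. H2-Eb1 holds the Y box letters again on the other strand, where they read CCAATC, as they do in H2-D1 and H2-T23. The class I windows are H2-K1 at chr17:34000348-34000597 (minus strand, 1 of its 2 windows), H2-D1 at chr17:35262844-35263093 (plus strand), B2m at chr2:122147437-122147686 (plus strand) and H2-T23 at chr17:36032702-36032951 (minus strand).
H2-K1: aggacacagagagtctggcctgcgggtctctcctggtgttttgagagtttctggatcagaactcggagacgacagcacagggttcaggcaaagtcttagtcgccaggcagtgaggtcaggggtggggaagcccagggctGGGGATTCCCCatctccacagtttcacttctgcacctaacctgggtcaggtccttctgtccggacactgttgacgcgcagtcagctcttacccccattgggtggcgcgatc
H2-D1: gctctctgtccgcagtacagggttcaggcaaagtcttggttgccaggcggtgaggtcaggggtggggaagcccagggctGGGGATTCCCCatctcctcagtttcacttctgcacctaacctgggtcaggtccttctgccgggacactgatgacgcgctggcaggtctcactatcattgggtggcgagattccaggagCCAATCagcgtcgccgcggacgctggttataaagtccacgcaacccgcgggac
B2m: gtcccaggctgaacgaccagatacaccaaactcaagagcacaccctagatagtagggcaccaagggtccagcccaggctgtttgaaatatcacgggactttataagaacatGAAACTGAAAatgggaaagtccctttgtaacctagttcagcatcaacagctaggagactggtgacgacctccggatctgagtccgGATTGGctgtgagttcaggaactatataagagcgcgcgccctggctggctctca
H2-T23: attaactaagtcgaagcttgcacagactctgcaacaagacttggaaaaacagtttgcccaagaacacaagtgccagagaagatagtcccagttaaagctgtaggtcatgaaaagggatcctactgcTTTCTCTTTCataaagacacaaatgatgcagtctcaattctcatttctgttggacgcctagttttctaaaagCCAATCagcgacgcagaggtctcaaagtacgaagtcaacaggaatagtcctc
The windows of H2-K1 and H2-D1 share a run of 47 identical bases, which includes the kappa B match.

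Values are the authors' normalized counts, made for each table on its own, so comparisons stay within a table, and totals per library lay between 36520200 and 53904700. The methods state a targeted sequencing depth, but the read numbers obtained for each library are unknown. Fold changes are differences of log2(normalized count + 1), which understates changes of low genes. Libraries are numbered in the order of their columns in a table, and the number is only a name. Nothing states that each library is a separate animal, so p-values measure the spread between these libraries, which may be technical. In bulk RNA of this kind fewer cells of a type and less RNA per cell cannot be told apart. Pparg itself was 9381 to 9999 normalized counts in controls and 6111 to 9032 in 4-day mutants, and 13.0 to 126 in basal tumors and 3579 to 8632 in luminal tumors. The table does not separate the transgene from the endogenous gene, but at 4 days Pparg was lower in every library labelled mutant than in any control, against the direction of an added copy. Fabp4, a known target of Pparg, was 207 to 467 in these controls and 4969 to 30598 in the mutants. Columns were tied to the 4-day groups by their number, 4 against 5, and a mutant below is a library so labelled. Krt5, a defining keratin of basal cells, was 62918 to 109572 normalized counts over the 9 sorted libraries. Summed counts of 4 Y-linked genes were 9030 to 9177 in controls 2 to 4, 404 in control 1 and 338 to 395 in the mutants, so that they divide the 4-day groups nearly as the genotype does. H2 heavy chains are close copies of each other, above all H2-Q6 and H2-Q7, and reads can be split between them, so their separate values are uncertain.

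In sorted basal cells, transcripts of class II genes were present in every library, and the highest values were those of mutants 3 and 4. H2-Aa held 160.1, 197, 307 and 417 normalized counts in controls 1 to 4 and 211, 149.7, 2678, 1976 and 449 in mutants 1 to 5. Mutants 3 and 4 stood well above every other library, while mutants 1 and 2 lay within the range of controls or below it, so the groups overlapped. The log2 fold change of H2-Aa was 1.24 (SE 0.83, limma adjusted p = 0.437). Its partner H2-Ab1 held 263, 285, 631 and 974 in controls and 215, 235, 4366, 3313 and 685 in mutants, with a log2 fold change of 0.91 (SE 0.94, limma adjusted p = 0.624). For H2-Eb1 the values were 234, 138, 311 and 429.7 in controls and 267, 243, 2525, 1948 and 400.4 in mutants, with a log2 fold change of 1.37 (SE 0.74, limma adjusted p = 0.327). The same 2 mutants were highest for both. Cd74 held 732, 1269, 2199.8 and 3114 in controls and 1171, 1246, 22059, 13619 and 2698 in mutants, which gave a log2 fold change of 1.37 (SE 0.90, limma adjusted p = 0.423), with an interval of -0.63 to 3.38. H2-Ea, the partner of H2-Eb1, was listed at 0 in all 9 libraries, and haplotype H2b is known not to transcribe it. H2-Ob was listed at 0 in all 9 as well, H2-Oa was at 1.06 or less, and H2-Eb2 did not exceed 4.58.

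The peptide exchange chains did not follow 1 pattern. H2-DMb1 held 123, 201, 143 and 168 normalized counts in controls and 180.5, 138, 704, 706 and 348 in mutants, which gave a log2 fold change of 1.1 (SE 0.49, limma adjusted p = 0.239), and mutants 3, 4 and 5 exceeded every control. H2-DMb2, the second copy of the beta chain gene, held 31.9, 45, 39.1 and 43.9 in controls and 14.1, 22, 19.1, 19.4 and 11.2 in mutants, and the groups did not overlap. Its log2 fold change was -1.2 (SE 0.30, limma adjusted p = 0.0594), the opposite sign to H2-DMb1. The copies are alike and H2-DMb2 is low, and whether its reads were split with H2-DMb1 was not tested. H2-DMa had a log2 fold change of 0.28 (SE 0.47, limma adjusted p = 0.774). Ciita, the class II transactivator, held 61.2, 73.5, 100.2 and 61.8 in controls and 49.3, 43.5, 151, 304 and 78.5 in mutants, again highest in mutants 3 and 4, with a log2 fold change of 0.39 (SE 0.54, limma adjusted p = 0.73).

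Of the 7 class II genes and partners tested, 0 passed an adjusted p of 0.05 and 6 had positive log2 fold changes, with a median of 1.1 beside 0.0045 over all 16413 genes tested. Without mutants 3 and 4, an alternative chosen after seeing the data, the log2 fold change became -0.058 for H2-Aa, -0.51 for H2-Ab1, 0.21 for H2-Eb1, -0.0085 for Cd74 and -0.39 for Ciita. Markers of some other cells were also highest in these libraries. Summed over 5 fibroblast genes (Col1a1, Col1a2, Col3a1, Pdgfra, Dcn), normalized counts were 11491, 24940.4, 41999 and 84334 in controls and 82344, 29995, 214831, 126970.0 and 66270.3 in mutants, highest in mutants 3 and 4. The 6 dendritic cell genes summed to 199, 177, 231 and 294 in controls and 245, 166, 795, 535 and 299 in mutants, of which Zbtb46, also used by endothelium, made up 734 and 489 in mutants 3 and 4. Macrophage markers summed to 399, 303, 321 and 324 in controls and 518, 344, 791, 552 and 705 in mutants. The 4 general leukocyte markers (Ptprc, Coro1a, Laptm5, Cd53) summed to 337, 262, 246 and 417 in controls and 310.3, 318, 276, 244 and 398 in mutants, with mutants 3 and 4 the lowest 2 of the mutants. T and NK cell markers summed to 165, 139, 140.2 and 187 in controls and 113, 109, 132, 160.1 and 115 in mutants. B cell markers did not exceed 28.4 in any library, and 1 or 2 of the 4 were below 1. Of the dendritic cell markers up to 3 of 6, and of the macrophage markers up to 2 of 6, were below 1 in a library, Itgax in mutant 2 and Adgre1 in mutant 1 among them. Smooth muscle markers summed to 109, 157, 81.2 and 863 in controls and 2172, 265, 1147, 487 and 602 in mutants, with 4 of 4 higher and 0 called. Of 6 epithelial markers, 3 had positive log2 fold changes (Cdh1 0.28, Krt18 0.40 and Krt8 0.84) and 3 negative ones (Epcam, Krt5 -0.30 and Trp63 -0.75), and 1 was called. This was Epcam, an adhesion molecule of epithelium, which held 12922, 12454, 12539.7 and 12095 in controls and 5901, 7731, 7538, 7844 and 9405 in mutants, without overlap, and it fell by 0.72 on the log2 scale (limma adjusted p = 0.0189), a call lost in 3 of 9 fits that left out 1 library. The part of other cells in the class II counts was not tested.

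**Figure D1:**
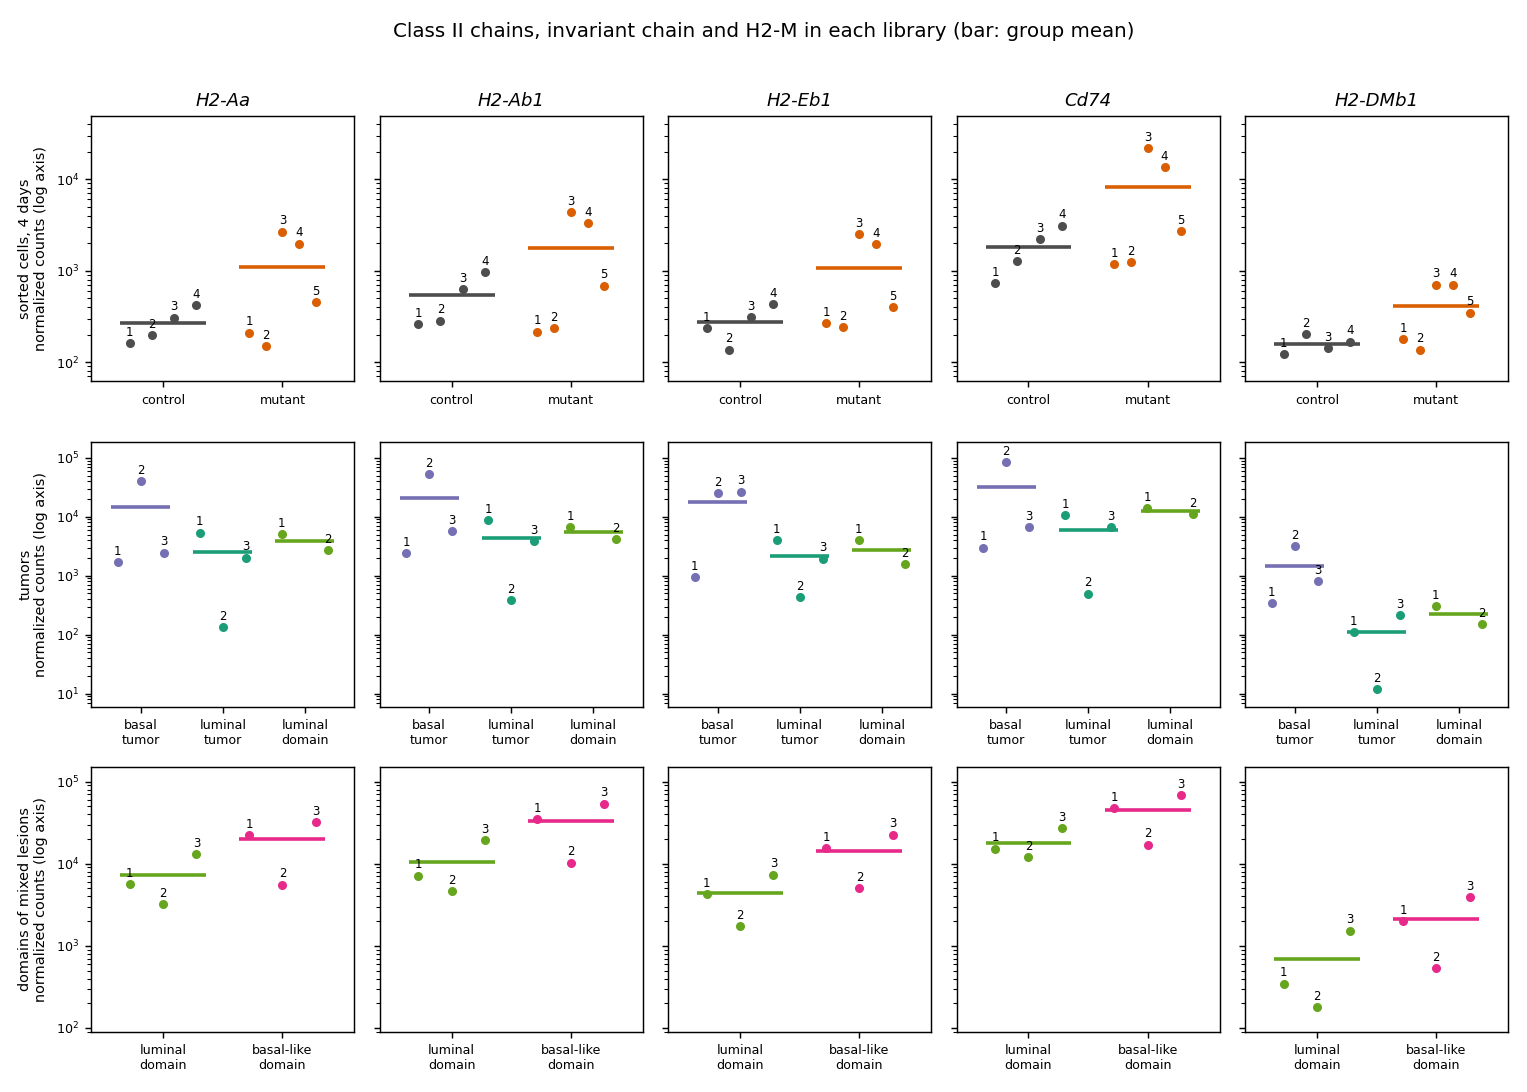
Normalized counts (log axis) of H2-Aa, H2-Ab1, H2-Eb1, Cd74 and H2-DMb1 in each library, with sorted cells in the upper row, tumors in the middle row and domains of mixed lesions in the lower row; each point is a library with its number and each bar the group mean. Mutants 3 and 4 stand above the other sorted libraries, luminal tumor 2 is the lowest of the 8 tumor libraries in every panel of the middle row, and in the lower row basal-like domains 1 and 3 lie above all luminal domains.

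Classical class I genes were abundant in the sorted cells. H2-K1 held 15137, 26191, 17396 and 24807 normalized counts in controls and 26967, 17802, 43528, 53742 and 48701 in mutants. Mutants 1, 3, 4 and 5 exceeded every control and mutant 2 lay among the controls. The log2 fold change was 0.79 (SE 0.33, limma adjusted p = 0.204), with an interval of 0.066 to 1.52. H2-D1 held 38295, 27414, 45033 and 61619 in controls and 47984, 34035, 62632, 68813 and 63855 in mutants, which gave a log2 fold change of 0.38 (SE 0.27, limma adjusted p = 0.459). The light chain B2m held 9658, 13840.0, 8675 and 14936 in controls and 15784, 8517, 21977, 25723 and 13459 in mutants, which gave a log2 fold change of 0.47 (SE 0.31, limma adjusted p = 0.421). For both, mutants 3 and 4 were above every control and mutant 2 was near or below the lowest ones.

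Among the genes that supply peptides, Tap1 had the smallest SE. It held 2228, 2145, 1959 and 2318 normalized counts in controls and 3205, 2282, 2813, 3278 and 2593 in mutants, so that 4 of 5 mutants exceeded every control. Its log2 fold change was 0.38 (SE 0.12, limma adjusted p = 0.111), with an interval of 0.11 to 0.65. Tap2, the other subunit of the transporter, had a log2 fold change of -0.029 (SE 0.25, limma adjusted p = 0.96). Tapbp (0.24, adjusted p = 0.685) and Erap1 (0.21, adjusted p = 0.532) had small positive values in the same limma fit. So did the immunoproteasome subunits Psmb8 (0.25), Psmb9 (0.14) and Psmb10 (0.064), with limma adjusted p from 0.721 to 0.908. Without mutants 3 and 4 the log2 fold changes of these 3 subunits turned negative, at -0.18, -0.29 and -0.30. Nlrc5, the class I transactivator, held 398, 213, 459 and 408 in controls and 128, 158, 624, 884 and 708 in mutants, with mutants 1 and 2 below and mutants 3 to 5 above all controls, and a log2 fold change of 0.10 (SE 0.59, limma adjusted p = 0.942). Over the 10 class I chains, partners and subunits, 9 log2 fold changes were positive, with a median of 0.24, and 0 were called.

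**Figure D2:**
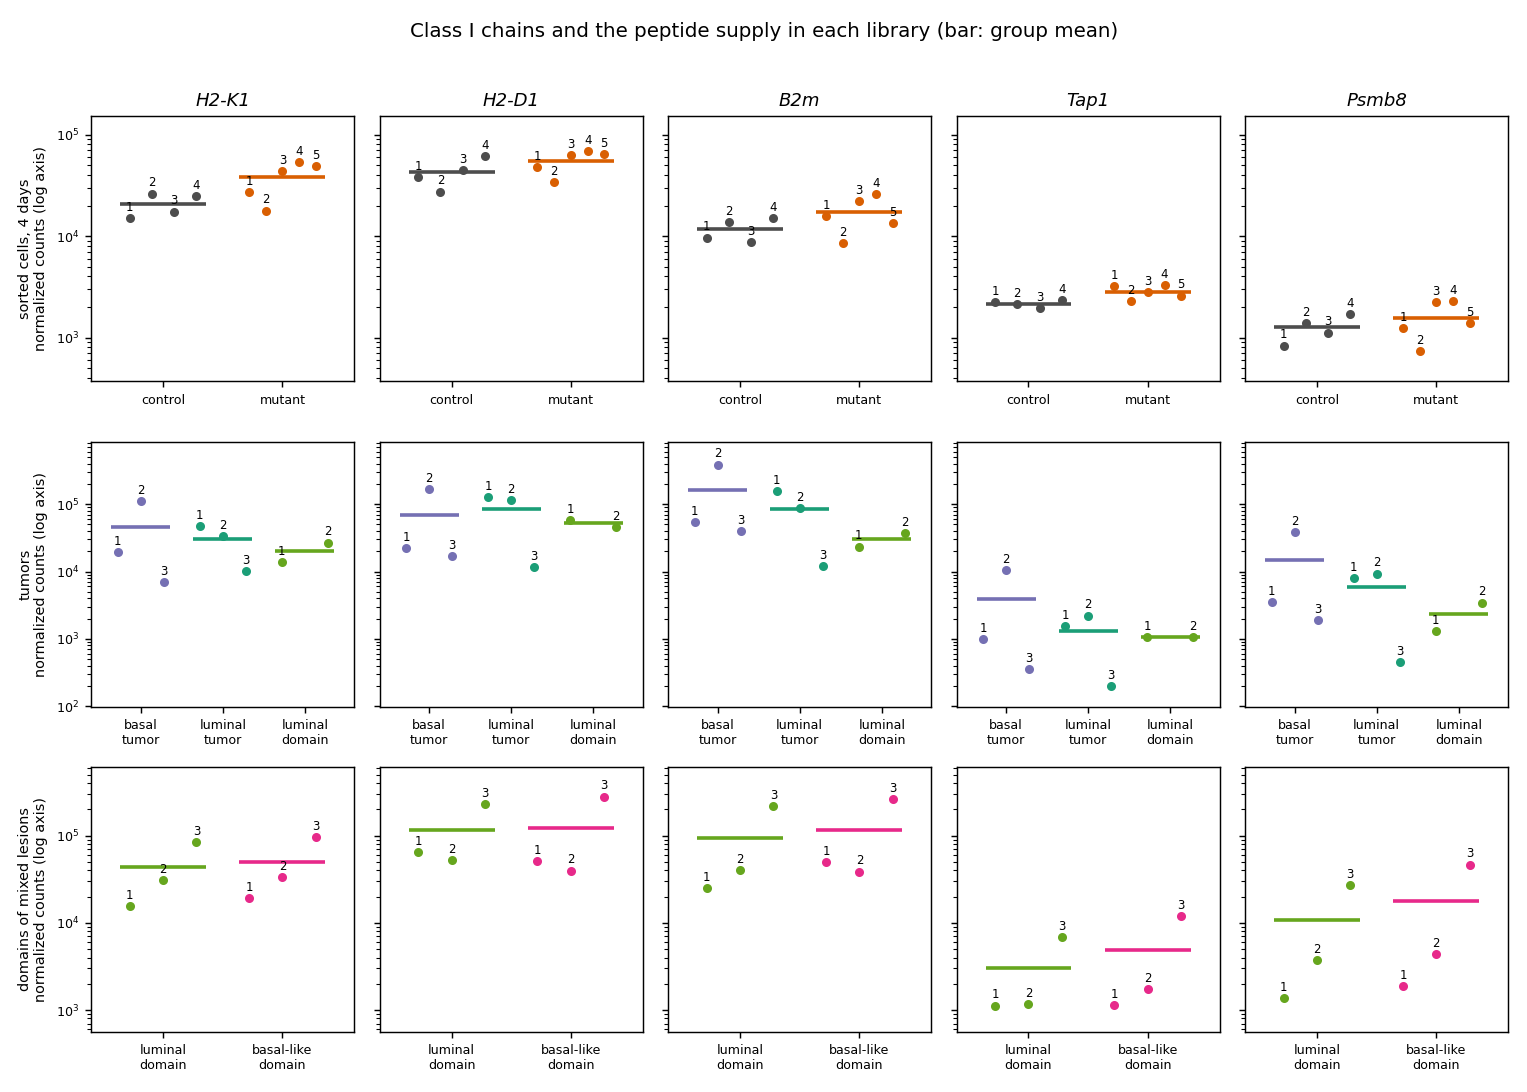
Normalized counts (log axis) of H2-K1, H2-D1, B2m, Tap1 and Psmb8 in each library, laid out as in the plot of class II genes, with a bar for each group mean. Basal tumor 2 is the highest tumor library in each panel of the middle row, and luminal domain 3 and basal-like domain 3 are the highest of their groups in each panel of the lower row.

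Over all 37 members tested at 4 days, limma called 0 at an adjusted p of 0.05, where 2.85% of all genes tested were called. Of the members, H2-M5 and H2-T3 would not have passed the filter on low values without the controls, in which they were higher. An unadjusted p under 0.05 was reached by 13 of the other 35 members (37.1%), 8 higher and 5 lower in mutants, beside 20.8% of all genes, 11.8% higher and 9.01% lower. Groups did not overlap for 3 members, H2-DMb2, H2-Q1 and H2-T24, which is 8.57% of 35 beside 9.18% of all genes. Log2 fold changes were positive for 25 of the 35, and for 50.5% of all genes, with a median of 0.25. Under 21 alternatives, between 0 and 3 members were called, and 5 alternatives called any, with 7 to 18 members at an unadjusted p under 0.05. Array weights called H2-DMb2, H2-Q7 and Tap1 (adjusted p = 0.0337, 0.0156 and 0.0477), and without control 2 the called members were H2-Bl, H2-T22 and H2-T23. With a term for the Y-linked score, 0 members were called, beside 26 of all 16413 genes, where the main fit called 467. In that fit 7 members were under an unadjusted p of 0.05.

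The members nearest to the threshold were non-classical heavy chains and H2-DMb2. Those named here were chosen after their values were seen. H2-Q7, a Qa-2 chain, held 599, 813, 609 and 1247 normalized counts in controls and 2757, 955, 3394, 4949.8 and 2928 in mutants, with every mutant but the second above all controls. The log2 fold change was 1.76 (SE 0.42, limma adjusted p = 0.0562), and without mutant 2 it was 2.13 (adjusted p = 0.00582). Among the fits that left out a single library, the one without mutant 2 alone called H2-Q7. Its near copy H2-Q6 had a log2 fold change of 1.34 (SE 0.45, limma adjusted p = 0.131). H2-T23, which encodes Qa-1, the ligand of the NK cell receptors CD94/NKG2, held 3147, 8531, 3734 and 4129.7 in controls and 7292, 8299, 13887, 10852 and 7784 in mutants. Control 2 lay among the mutants and the other controls below them all, and the log2 fold change was 1.05 (SE 0.29, limma adjusted p = 0.0827). H2-T22 held 1083, 2526, 1158 and 1359.8 in controls and 2804, 1926, 2853, 2819.8 and 2336 in mutants, which gave a log2 fold change of 0.81 (SE 0.24, limma adjusted p = 0.0975). H2-T24 held 131, 172, 116 and 151 in controls and 201, 211, 288, 227 and 217 in mutants, without overlap, and its log2 fold change was 0.68 (SE 0.19, limma adjusted p = 0.0887). Without control 2, the limma adjusted p was lower for H2-T23 (0.029) and H2-T22 (0.0207) and higher for H2-Q7 (0.137), H2-T24 (0.132), H2-Q6 (0.306) and H2-DMb2 (0.168).

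Lower values in mutants were seen for another set of these chains. H2-Bl held 245, 48.5, 339 and 406 normalized counts in controls and 32.5, 23.8, 35.5, 35.3 and 67.9 in mutants, so that 3 controls stood far above all mutants and control 2 among them. The log2 fold change was -2.43 (SE 0.59, limma adjusted p = 0.0581), and without control 2 it was -3.11 (adjusted p = 0.00748). Among the fits that left out a single library, the one without control 2 alone called H2-Bl. H2-Q1 held 46.6, 529, 60.8 and 78.8 in controls and 21.1, 12.2, 16.8, 27.5 and 31.4 in mutants, with control 2 the highest by far and no overlap, a log2 fold change of -2.28 (SE 0.66, limma adjusted p = 0.091), which was -1.51 without control 2 (adjusted p = 0.122). H2-T10, close in sequence to H2-T22, held 546, 124, 489 and 528 in controls and 209, 47.2, 286, 267 and 152 in mutants, which gave a log2 fold change of -1.15 (SE 0.60, limma adjusted p = 0.311). Within a library, H2-T10 was 0.504, 0.423 and 0.388 of H2-T22 in controls 1, 3 and 4, 0.0490 in control 2 and 0.0245 to 0.100 in the mutants. Control 2 was nearer to the mutants than to the other controls in this ratio. Of the 16 other class I heavy chains tested, 8 were higher and 8 lower in mutants, with log2 fold changes from -2.43 to 1.76. The lower ones take in H2-M5 (-1.81) and H2-T3 (-1.27), which would not have passed the filter on low values without the controls.

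Further genes of the pathway that the rule does not take in were grouped in 8 lists by function. Of 6 endoplasmic reticulum genes that help to load class I, all 6 had positive log2 fold changes and 3 were called at 4 days. For the lists of this paragraph, the shares over all genes were 50.5% positive and 2.85% called, 1.77% being called higher. Calr, a lectin chaperone of the loading complex, rose by 0.67 on the log2 scale (SE 0.14, limma adjusted p = 0.036), with 14268, 10292, 13225 and 13549 normalized counts in controls and 23224, 23687, 17599, 16992 and 20518 in mutants. Pdia3, the thiol oxidoreductase of that complex, rose by 0.38 (limma adjusted p = 0.0461), and Hspa5, the general chaperone BiP, rose by 0.71 (limma adjusted p = 0.0323). None of the groups of these 3 genes overlapped. When libraries were left out 1 at a time, the call was lost in 8 of 9 fits for Calr, 6 for Hspa5 and 9 for Pdia3, the adjusted p reaching 0.103, 0.0987 and 0.138, while the log2 fold changes stayed positive. The Y-linked genes divide these groups too. With a term for the Y-linked score, 26 of all 16413 genes were called, in place of 467. Control 1 alone parts that score from the genotype, so the shares of sex and genotype in the calls cannot be told apart. The genes of class II proteolysis (Ctss, Ctsl, Ctsb, Ctsd, Lgmn, Ifi30) had 6 positive values of 6 and those of the interferon gamma axis 5 of 10 tested, and none was called. The constitutive proteasome subunits, the proteasome activator and the MHC-like genes had 3 of 3, 3 of 3 and 6 of 6 positive. Positive values numbered 1 of 7 among the DNA-binding proteins of the shared boxes and 1 of 5 among the costimulatory genes, with 0 called in each of these lists.

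Luminal tumors of K5VP16;Pparg+/- mice were set against basal tumors of the control mice in the table of 8 tumor libraries, in which luminal domains 1 and 2 share the estimate of spread. All 7 class II genes and partners tested had lower fitted values in luminal tumors, with a median log2 fold change of -2.28 beside -0.11 over all genes, yet limma called 0 of them. H2-Aa held 1718, 40142 and 2459.7 normalized counts in basal tumors 1 to 3, 5392, 133 and 2026 in luminal tumors 1 to 3 and 5018 and 2754 in the luminal domains. Basal tumor 2 stood above and luminal tumor 2 below every other library, and the remaining 6 overlapped. The log2 fold change was -2.28 (SE 1.43, limma adjusted p = 0.435). H2-Ab1 held 2412, 53264 and 5721 in basal and 8704, 389 and 3814 in luminal tumors, which gave a log2 fold change of -1.94 (SE 1.26, limma adjusted p = 0.45). Cd74 held 3008, 85619 and 6583 in basal and 10823, 497 and 6686 in luminal tumors, which gave a log2 fold change of -1.85 (SE 1.33, limma adjusted p = 0.499). H2-Eb1 departed from this order, with 954, 25208 and 26749 in basal and 4001, 439 and 1951 in luminal tumors and a log2 fold change of -2.52 (SE 1.25, limma adjusted p = 0.325). In basal tumor 3 it was 10.9 times H2-Aa, whereas this ratio was 0.555 and 0.628 in basal tumors 1 and 2. Since the 2 genes differ in length, the ratio is of use only between libraries.

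Among class II genes and partners, 2 chains of H2-DM, which exchanges the peptide, were the ones whose groups did not overlap, as was the case for 21.5% of all genes. H2-DMb1 held 346, 3226 and 807 normalized counts in basal and 109.9, 12.1 and 213 in luminal tumors, without overlap, and its log2 fold change was -3.84 (SE 1.22, limma adjusted p = 0.142). H2-DMa held 724, 3885 and 593 in basal and 508, 1.16 and 279.8 in luminal tumors, again without overlap, with a log2 fold change of -4.13 (SE 1.82, limma adjusted p = 0.267). Luminal tumor 2 was the lowest by far for H2-DMa, whose log2 fold change was -1.65 without it. H2-DMb2 (-2.09, limma adjusted p = 0.595) and the transactivators Ciita (-3.01, adjusted p = 0.492) and Nlrc5 (-2.94, adjusted p = 0.564) were negative with overlapping groups. Nlrc5 held 342, 2133 and 197 in basal and 465, 478 and 0.443 in luminal tumors, and Ciita held 49, 1270.0 and 4.44 in basal and 4.66, 0.945 and 58.8 in luminal tumors. Without basal tumor 2 and luminal tumor 2, an alternative chosen after seeing the data, H2-DMa (-0.79), H2-DMb1 (-1.78) and H2-Eb1 (-0.85) kept negative log2 fold changes, and those of H2-Aa (0.68), H2-Ab1 (0.63), Cd74 (0.93), H2-DMb2 (0.96) and Ciita (0.16) turned positive.

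Markers of other cells were uneven in the captured tumors. Macrophage markers summed to 23217, 24724 and 7548 normalized counts in basal tumors, 6075, 329 and 2938 in luminal tumors and 5225 and 6747 in the luminal domains, with luminal tumor 2 the lowest of the 8, as for class II. All 6 macrophage markers were lower in luminal tumors and Fcgr1, an Fc receptor, was called, with a log2 fold change of -7.08 (SE 1.43, limma adjusted p = 0.0419). Summed leukocyte markers were 7179, 22186 and 4848 in basal and 2932, 5855 and 4147 in luminal tumors, with 4 of 4 lower and 0 called. In luminal tumor 2, Cd53 alone made up 5587 of the sum, and Ptprc was 47.7, Coro1a 219 and Laptm5 1.84. For B cell markers the sums were 4.53, 1415 and 93.9 in basal and 1.27, 73 and 1.89 in luminal tumors, and for T and NK cell markers 362, 11004 and 311 and 745, 200.5 and 879, in both cases highest in basal tumor 2. Fibroblast markers were 64365, 44174 and 62590.2 in basal and 754, 212 and 17077 in luminal tumors, all 5 of them lower and 2, Col1a1 and Col1a2, called. Ctsl, an endosomal protease of class II processing, fell by 4.36 on the log2 scale (limma adjusted p = 0.0364), the single call among the 8 pathway lists outside the rule in this comparison. When each library was left out in turn, the call was lost in 4 of 6 fits for Ctsl and in 5 of 6 for Fcgr1, Col1a1 and Col1a2. Smooth muscle markers summed to 23779, 4598 and 41742 in basal and 218, 11.6 and 1028 in luminal tumors, all 4 of them lower and 2, Acta2 (limma adjusted p = 0.0472) and Cnn1 (limma adjusted p = 0.0428), called, each call again lost in 5 of 6 fits. Dendritic cell markers summed to 843, 1103 and 235 in basal and 270.3, 72.7 and 247 in luminal tumors, the 5 tested being lower and 0 called. All 4 endothelial markers were lower too, with 0 called. Of 6 epithelial markers, 3 were higher and 3 lower in luminal tumors. Krt8 was called (3.08, limma adjusted p = 0.0184), a call lost in 3 of 6 fits. The part of other cells in the class II values was not tested here either.

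**Figure D3:**
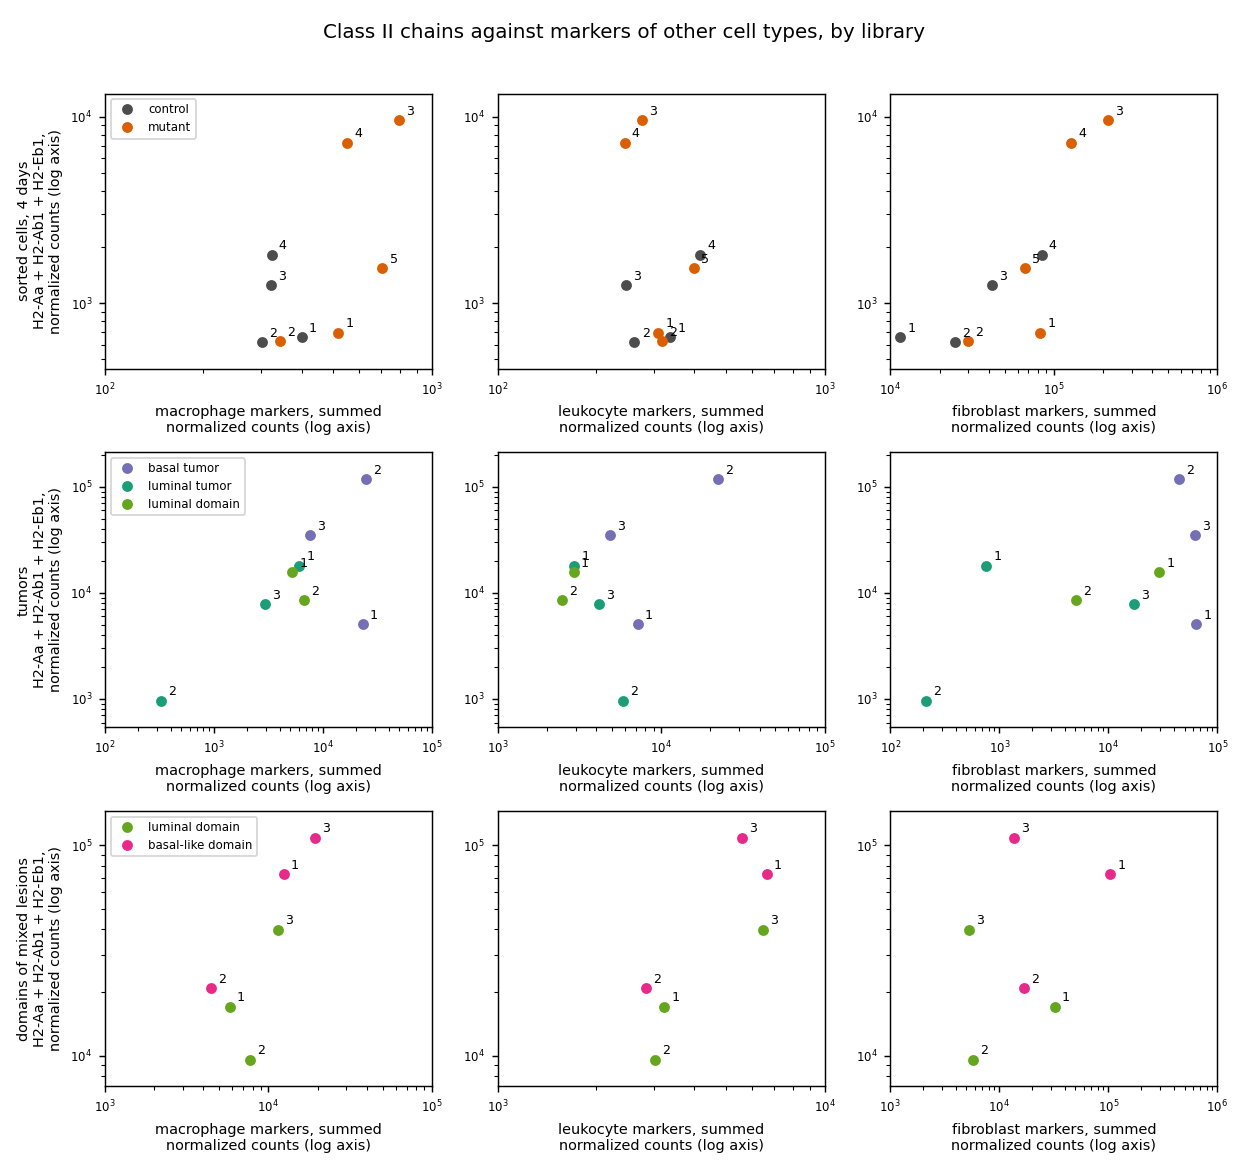
Summed normalized counts of H2-Aa, H2-Ab1 and H2-Eb1 against summed markers of macrophages, leukocytes and fibroblasts (all axes logarithmic), each point a library with its number, for sorted cells, tumors and domains from top to bottom. In sorted cells mutants 3 and 4 are highest in class II and in fibroblast markers and not in leukocyte markers, which are 276 and 244 there, and among tumors basal tumor 2 is highest and luminal tumor 2 lowest in both class II and macrophage markers.

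The classical class I chains H2-K1 and H2-D1 overlapped between basal and luminal tumors. H2-K1 held 19485, 110677 and 7022 normalized counts in basal and 46911, 33869 and 10157 in luminal tumors, which gave a log2 fold change of 0.031 (SE 0.92, limma adjusted p = 0.989) with an interval of -2.04 to 2.1. H2-D1 held 22560.0, 169699 and 17027 in basal and 129210.0, 114221 and 11622 in luminal tumors, which gave a log2 fold change of 0.47 (SE 1.04, limma adjusted p = 0.852). B2m held 53866, 387259 and 39750.4 in basal and 157550.0, 88398 and 12072 in luminal tumors, which gave a log2 fold change of -0.77 (SE 1.03, limma adjusted p = 0.743). Basal tumor 2 was the highest in each, and luminal tumor 3 was the lowest of these 6 for H2-D1 and B2m. Tap1 (-0.81), Tap2 (-1.03), Tapbp (-0.061), Erap1 (-0.79), Psmb8 (-0.98), Psmb9 (-0.14) and Psmb10 (-0.63) were negative too, and the lowest limma adjusted p among them was 0.45, of Erap1. The log2 fold change of H2-K1 changed sign under quantile normalization and upper-quartile scaling, at -0.25 and -0.049.

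In all, limma called 0 of 37 members in luminal against basal tumors, while 2.2% of all genes tested were called. At an unadjusted p under 0.05 there were 3 members (8.57% of 35), H2-DMa, H2-DMb1 and H2-M2, all lower, beside 18.4% of all genes, with 9.7% lower. Log2 fold changes were positive for 10 of these 35 members, which leave out H2-M5 and H2-T3, which would not have passed the filter on low values without the luminal tumors, and for 46% of all genes. Groups did not overlap for 4 members (11.4% of 35), H2-DMa, H2-DMb1, H2-M2 and H2-T24, beside 21.5% of all genes. H2-M2, a non-classical chain named after its values were seen, held 433, 487 and 371 in basal and 187, 2.01 and 0 in luminal tumors, which gave a log2 fold change of -5.7 (SE 1.84, limma adjusted p = 0.148). Each of 18 alternatives called 0 members, and 1 to 5 were under an unadjusted p of 0.05. Basal tumor 2 was the highest of the 8 tumor libraries for 31 of the 37 members, among them all 10 class I chains, partners and subunits, while it was highest for 14.9% of all genes. Luminal tumor 2 was the lowest for all 7 class II genes and partners. The median SD within groups on the log2 scale was 2.2 for members and 0.902 for all genes.

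The 3 luminal domains were then set against the same basal tumors in their own table, a comparison that shares the basal tumor libraries and 2 luminal domains with the one above. No member was called (2.53% of all genes were), 1 of 35 was under an unadjusted p of 0.05 (20.6% of all genes, and 11.1% in its direction, higher), and 15 alternatives called 0 or 1, with 1 to 7 under that unadjusted p. That member, H2-Ke6, is the dehydrogenase gene and not part of antigen presentation, and it is named after its value was seen. It held 819, 1533 and 875 normalized counts in basal tumors and 2411, 3880.2 and 3299 in luminal domains, without overlap, with a log2 fold change of 1.6 (SE 0.38, limma adjusted p = 0.0725). Without basal tumor 2 its adjusted p was 0.0469. H2-Ke6 and H2-M2 were the 2 members without overlap (5.71% of 35, beside 26.8% of all genes). Class II values of both groups overlapped. H2-Aa held 1865, 42721 and 2639.8 in basal tumors and 5527, 3073 and 12517 in luminal domains, a log2 fold change of 0.0049 (SE 1.12, limma adjusted p = 0.999) with an interval of -2.57 to 2.58. Those of H2-Ab1 (-0.15), H2-Eb1 (-1.26), Cd74 (0.44), H2-DMa (-0.71), H2-DMb1 (-1.25) and H2-DMb2 (-1.6) had limma adjusted p from 0.531 to 0.952. H2-DMb2, Nlrc5, Ciita, H2-Bl, H2-K2, H2-Q2 and H2-T24 would not have passed the filter on low values here without the group in which they were higher, so their values are given as a description. Nlrc5 was at -3.02 (adjusted p = 0.439), with 1.26, 186 and 529 in the luminal domains. Ciita was 0.49 (adjusted p = 0.913).

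Among class I genes of this comparison, H2-D1 had a log2 fold change of 1.07 (SE 0.91, limma adjusted p = 0.555), H2-K1 of 0.34 and B2m of -0.70. H2-D1 held 24429, 180173 and 18230.3 normalized counts in basal tumors and 64214, 51281 and 227691 in luminal domains, so that luminal domain 3 was the highest, ahead of basal tumor 2, and the groups overlapped. The peptide transporter subunits Tap1 (0.36) and Tap2 (0.85) and tapasin (0.72) were positive, and Erap1 (-0.25), Psmb8 (-0.35), Psmb9 (-0.43) and Psmb10 (-1.03) negative, with limma adjusted p from 0.407 to 0.905. Over all 35 members tested, 14 were positive (40%, and 50.4% of all genes), with a median of -0.43, which ran from -1.23 without basal tumor 3 to 0.98 without basal tumor 2. Without the 7 that would not have passed the filter on low values but for the group in which they were higher, 11 of 28 were positive, with a median of -0.39. Of the pathway lists outside the rule, 0 genes were called here. All 4 leukocyte markers, 5 of 6 macrophage markers and all 5 fibroblast markers had negative log2 fold changes in luminal domains, with 0 called in these 3 lists. Positive values were seen for 4 of 6 T and NK cell markers, 3 of 4 endothelial markers and 2 of 5 dendritic cell markers, again with 0 called. All 4 smooth muscle markers were negative, and 2 of them were called, Acta2 (-3.54, limma adjusted p = 0.0468) and Cnn1 (-9.79, limma adjusted p = 0.0371), each call being lost in 5 of 6 fits that left out 1 library. They summed to 25869, 4754 and 43763 in basal tumors and 1622, 995 and 1359 in luminal domains. The part of these cells was not tested.

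In the mixed lesions, basal-like domains held more class II transcripts than luminal domains in the fitted values of 7 of 7 class II genes and partners tested, H2-Oa apart, with a median log2 fold change of 1.64 beside 0.0093 over all genes. H2-Oa and 6 other members of the 37 tested (H2-Bl, H2-K2, H2-Q5, H2-T3, H2-T10 and Nlrc5) would not have passed the filter on low values without the group in which they were higher, and the counts of members below are over the other 30 unless another number is given. H2-Aa held 5678, 3197 and 13013 normalized counts in luminal domains 1 to 3 and 22238, 5557 and 31912 in basal-like domains 1 to 3, a log2 fold change of 1.35 (SE 0.71, limma adjusted p = 0.935). H2-Ab1 held 7174, 4658 and 19281 in luminal and 34946, 10305 and 53846 in basal-like domains, a log2 fold change of 1.64 (SE 0.69, limma adjusted p = 0.935) with an interval of 0.047 to 3.23. H2-Eb1 held 4264, 1739 and 7360.4 in luminal and 15629.9, 5048 and 22675 in basal-like domains, a log2 fold change of 1.68 (SE 0.66, limma adjusted p = 0.935). In all 3 genes basal-like domains 1 and 3 exceeded every luminal domain and basal-like domain 2 lay within their range, so that the groups overlapped. The invariant chain Cd74 held 15262, 12051 and 26939.7 in luminal and 47644, 17142 and 68865 in basal-like domains, in the same order, with a log2 fold change of 1.17 (SE 0.52, limma adjusted p = 0.935). When domains of the same number, whose library codes are consecutive, were taken as pairs, these 4 genes were higher in the basal-like domain of all 3 pairs, as were 17 of the 30 members (56.7%, beside 17.7% of all genes). In limma with these pairs as a block, an alternative chosen after seeing the data, the adjusted p was 0.146 for H2-Aa, 0.143 for H2-Ab1, 0.103 for H2-Eb1 and 0.163 for Cd74, 0 of 37 members were called and 13 of the 30 (43.3%) had an unadjusted p under 0.05, beside 12.5% of all genes. Over all 14874 genes the block called 1.

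Among the 30 members, the groups of H2-DMb2 alone did not overlap (3.33%, beside 10.8% of all genes). H2-DMb2 held 113, 10.1 and 247 normalized counts in luminal and 529, 255 and 1123 in basal-like domains, a log2 fold change of 2.98 (SE 1.21, limma adjusted p = 0.935). H2-Oa, the alpha chain of the H2-DM inhibitor and typical of B cells and some dendritic cells, held 0, 0 and 59.7 in luminal and 384, 138 and 70.7 in basal-like domains, a fitted log2 fold change of 5.31 (SE 1.79, limma adjusted p = 0.935). It entered the test only through the basal-like domains, where it is high. As it is listed at 0 in 2 luminal domains, the size of that fold change depends on the value added before the logarithm. H2-DMa (1.09), H2-DMb1 (1.81) and Ciita (1.93), each with a limma adjusted p of 0.935, and Nlrc5 (2.5, adjusted p = 0.95) were positive with overlapping groups. Ciita held 135, 21.3 and 251 in luminal and 269.8, 162 and 961 in basal-like domains.

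Class I genes had smaller log2 fold changes in the same comparison. H2-K1 held 15511, 30705 and 84242 normalized counts in luminal and 19211, 33162 and 96557 in basal-like domains, a log2 fold change of 0.21 (SE 0.73, limma adjusted p = 0.989) with an interval of -1.47 to 1.88. B2m held 24856, 40284 and 219946 in luminal and 49896, 38636 and 264584 in basal-like domains, a log2 fold change of 0.40 (SE 0.94, limma adjusted p = 0.986). H2-D1 held 64742, 52367 and 232302 and 51648, 39882 and 280871 in the same order, a log2 fold change of -0.15 (SE 0.82, limma adjusted p = 0.991), which became 0.069 under quantile normalization. In each of them the libraries numbered 3 were the highest of both groups. Tap1 (0.46), Tap2 (0.17), Psmb8 (0.48), Psmb9 (0.89) and Psmb10 (0.58) were positive and Tapbp (-0.47) and Erap1 (-0.12) negative. The difference between the class I and class II values was not tested.

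With 3 libraries against 3, limma called 0 of all 14874 genes, and hence 0% of genes and 0 of 37 members, in the domains. At an unadjusted p under 0.05 there were 3 of the 30 members (10%), H2-Ab1, H2-Eb1 and H2-DMb2, all higher in basal-like domains, beside 5.09% of all genes, 2.59% higher. None of 16 alternatives called a member, and 0 to 14 of the members tested in each were under an unadjusted p of 0.05. Log2 fold changes were positive for 20 of the 30 members, and for 50.7% of all genes. Basal-like domain 3 was the highest library for 30 of the 37, which take in the 7 members left out above, and for 18.3% of all genes. It was also the highest for all 10 class I chains, partners and subunits, none of which is among those 7. Macrophage markers summed to 5805, 7712 and 11460.2 in luminal and 12404, 4446 and 19309 in basal-like domains, dendritic cell markers to 122, 489.9 and 369 and 976, 512 and 1023, and T and NK cell markers to 365, 1191 and 1650.0 and 1588, 2163 and 4979. Summed fibroblast markers were 32228, 5766 and 5222 in luminal and 103473, 16697 and 13728 in basal-like domains. General leukocyte markers summed to 3230, 3020 and 6470 in luminal and 6649, 2846 and 5577 in basal-like domains. This sum was higher in basal-like domain 1 than in luminal domain 1. For the domains numbered 2 and 3 it was lower in the basal-like domain, unlike class II. Of these 4 markers, 3 had positive log2 fold changes and 0 were called. The sum of dendritic cell markers was higher in all 3 basal-like domains than in any luminal domain, narrowly for basal-like domain 2. It takes in a marker that did not pass the filter on low values. Summed over the 5 tested alone, basal-like domain 2 lay below luminal domain 2, so the groups overlapped. Of the 5 tested, Flt3 and Zbtb46 did not overlap, Ccr7, Itgax and Xcr1 did, and 0 were called. Basal-like domain 2, lowest in class II of its group, was also lowest in macrophage, dendritic cell and general leukocyte markers. T and NK cell markers were instead lowest in basal-like domain 1, and fibroblast markers in basal-like domain 3. The part of these cells was not tested. Of 5 costimulatory genes, 4 had positive log2 fold changes, and of 6 MHC-like genes 5, with 0 called in any list.

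**Figure D4:**
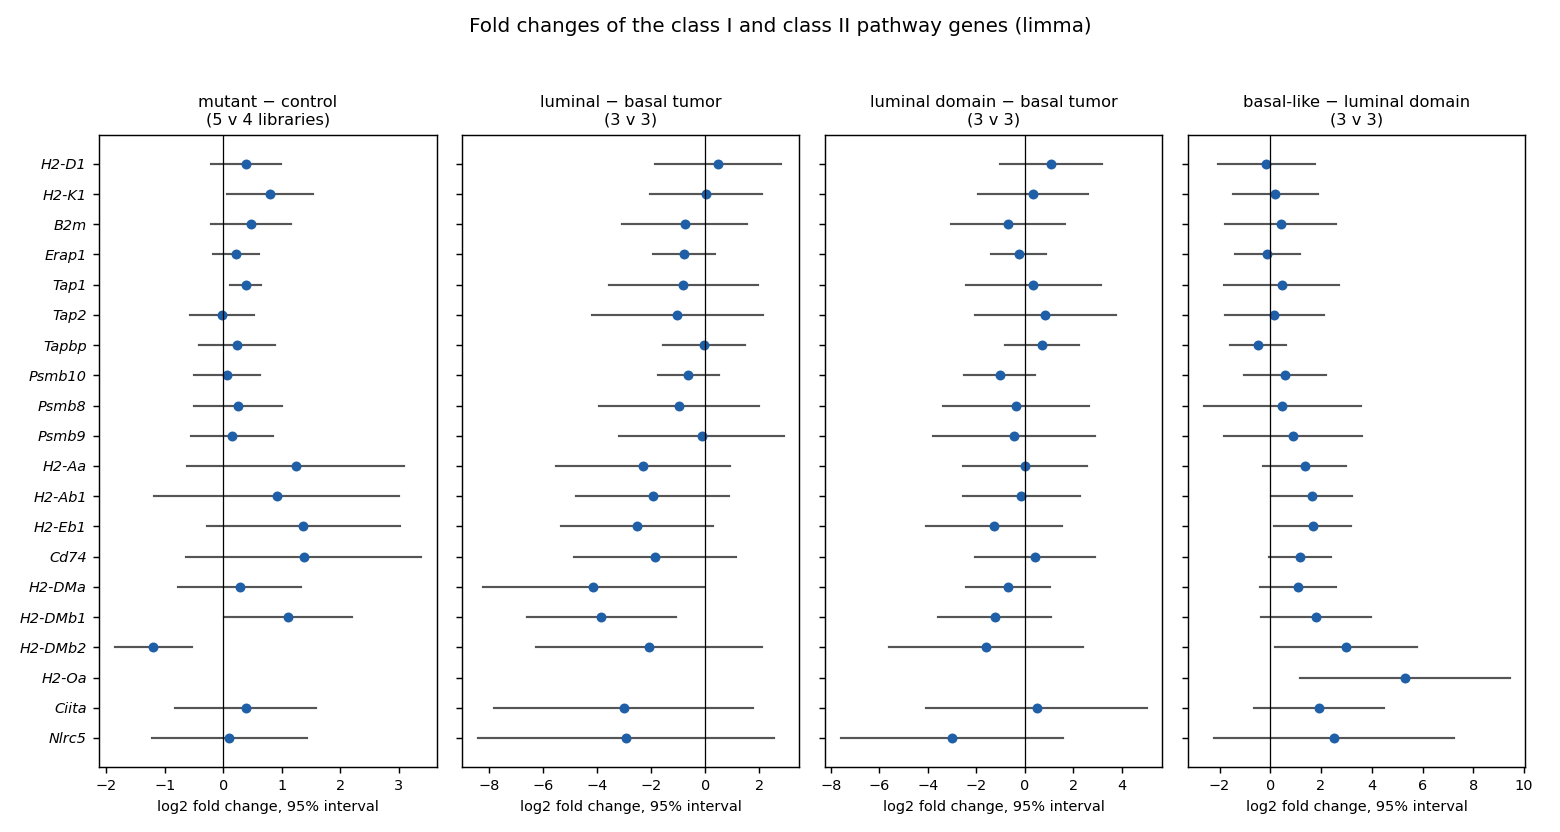
Log2 fold changes with 95% intervals of the named class I and class II pathway genes in the 4 comparisons (limma), 1 panel per comparison with its own scale and the number of libraries above it. Class II genes lie to the right of 0 in the domains (H2-Eb1 1.68, H2-DMb2 2.98) and to the left in luminal against basal tumors (H2-DMb1 -3.84), H2-K1 lies at 0.031 in the tumors and 0.21 in the domains, H2-Oa passed the filter on low values in the domains alone, and 0 of the genes shown passed an adjusted p of 0.05.

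Some non-classical heavy chains differed greatly between libraries of the same group in every table, and the chains named here were chosen after their values were seen. H2-T10 held 260.3, 4559 and 14.5 normalized counts in basal tumors, 2389, 3099.7 and 3.99 in luminal tumors and 55.1 and 49.8 in luminal domains 1 and 2. The high libraries were basal tumor 2 and luminal tumors 1 and 2, and the other 5 lay far lower. H2-Q2 was high in the same 3 libraries, with 83.9, 1758 and 2.72 in basal tumors, 1044, 444 and 50.8 in luminal tumors and 25.8 and 45.4 in luminal domains. H2-Bl, highest in these 3 as well, held 77.8, 1024 and 14.5 in basal tumors, 574, 590.4 and 70.8 in luminal tumors and 7.0 and 43 in luminal domains. H2-Q1 followed another order, with 283, 1639 and 9.06 in basal tumors, 49.1, 60.3 and 1159 in luminal tumors and 29.4 and 696 in luminal domains. In the domains, H2-T10 held 67.9, 63 and 2146 in luminal and 2.0, 54.6 and 4691 in basal-like domains, and H2-Q1 held 34.1, 828 and 77.7 in luminal and 36, 721 and 77.4 in basal-like domains. The libraries numbered 3 were high in H2-T10 and those numbered 2 in H2-Q1.

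H2-Ea, which H2b does not transcribe, was listed at 41.1 normalized counts in basal tumor 2 and 10.5 in luminal domain 2, and at 1 or less in the other tumor libraries. In the table of domains it held 0, 11 and 0 in luminal and 0, 31.8 and 0 in basal-like domains. H2-T23 was more even, with 12705, 16175 and 5462 in basal and 5546, 7773 and 7965 in luminal tumors. Of the 15 members tested in no comparison, 5 were listed at 0 in every library (H2-M1, H2-M10.4, H2-M10.5, H2-Pa and H2-Pb), and the highest value of any was 143, of H2-Ob in luminal tumor 3.

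**Figure D5:**
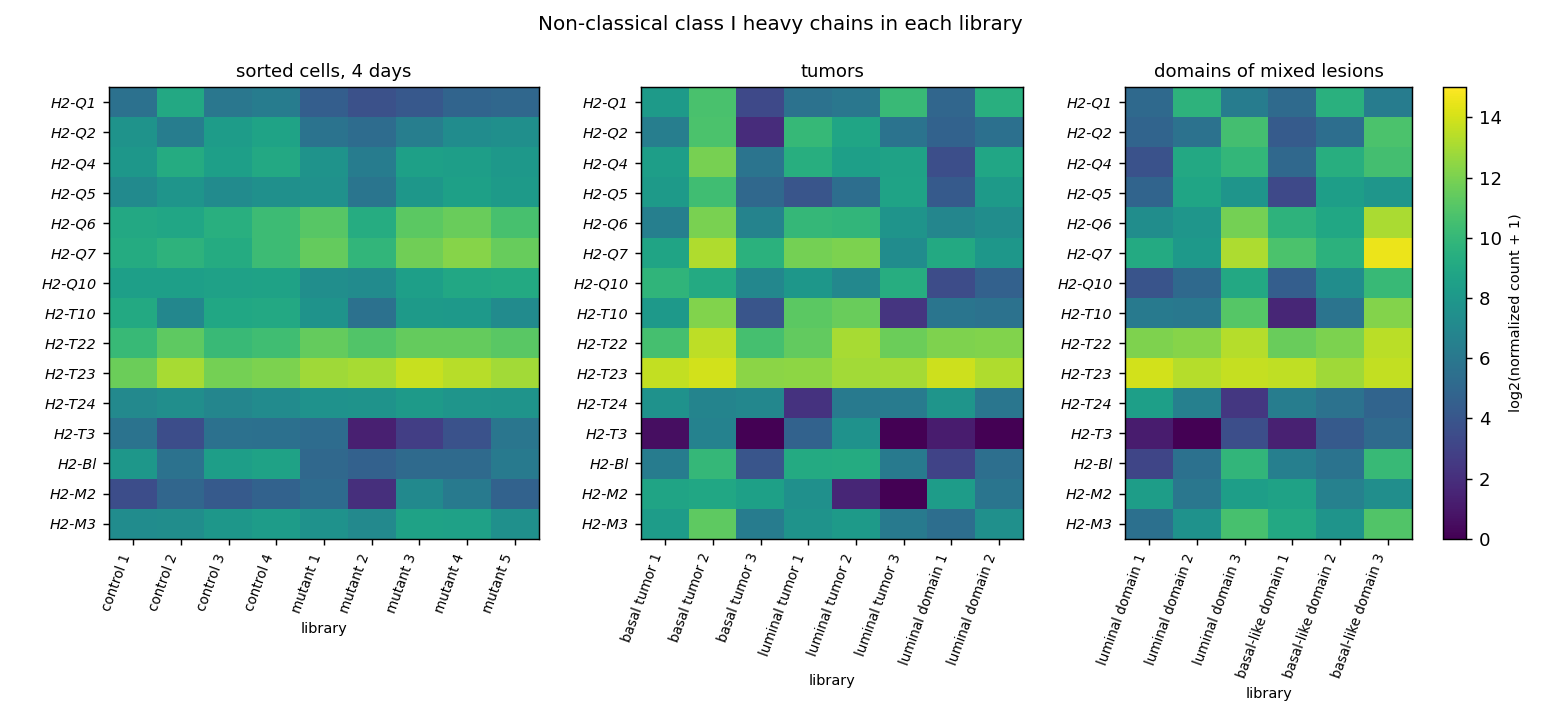
Log2(normalized count + 1) of 15 non-classical class I heavy chains in each library, with sorted cells on the left, tumors in the middle and domains on the right, and brighter colors for higher values. H2-T10 and H2-Bl are bright in controls 1, 3 and 4 and dim in control 2, and in the tables of tumors and domains they are brightest in basal tumor 2, luminal tumors 1 and 2, luminal domain 3 and basal-like domain 3.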

How the data were processed

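RNA from sorted basal cells and from laser-captured tumor areas was made into libraries with a low-input SMART-Seq v4 kit and Nextera XT. According to the submitters' processing notes and the methods, reads were demultiplexed with bcl2fastq 2.20, quantified with kallisto 0.44.0 on GRCm38 and normalized with DESeq2 1.18. The deposited values are the authors' normalized counts per gene, on a linear signal scale, with each table normalized on its own. They are not raw counts, so depth in reads and its counting error are unknown. Columns of the authors' own fold changes and p-values were not used, nor were 8 columns of bladders treated with BBN or untreated that could not be tied to a sample.

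Here, log2(normalized count + 1) was fitted with limma 3.58.1 in R 4.3.3, with an intensity trend and Benjamini-Hochberg adjustment over all genes with at least 10 normalized counts in as many libraries as the smaller group has. Of the members tested, 2 at 4 days, 2 in luminal against basal tumors, 7 in luminal domains against basal tumors and 7 between domains would not have passed this filter without the group in which they were higher. Tests are two-sided at an adjusted p of 0.05, and intervals are 95% intervals. Steps were tested on simulated data. Members named by rule are the classical class I and class II chains, their partners, the immunoproteasome and the transactivators. The members and lists were chosen with earlier results of these data known. Alternatives were pseudocounts of 0.5 and 5, no filter or a filter of 50, scaling by quantiles or by the upper quartile, limma without the trend, with robust moderation or with array weights, each library left out, a Y-linked term, another table or grouping and, chosen after seeing the data, pairs of libraries left out. The share of all genes under an unadjusted p of 0.05 was not computed for these, so their counts of members under it have no background. Luminal and basal-like domains have consecutive library codes in pairs, which the labels do not explain. Over all genes tested, deviations from the group means correlated at 0.36, 0.35 and 0.33 within these pairs, and each of the 6 libraries correlated best, among those of the other group, with its own partner, so a fit with the pairs as a block was added. Promoter windows come from RefSeq (GRCm38.p6).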

Additional observations from a re-analysis of the deposited data

Results flagged for a closer look

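Dixon's test of the lowest and highest library of a group could be run in the 4-day groups, over 74 groups of values, and marked 2 of them, beside 3.7 that chance would mark at 1 in 20. Both are low values of control 2, and both chains were chosen by the test and not before their values were seen. H2-T10 held 124 normalized counts in control 2, and the nearest other control held 489, a gap of 0.927 of the range of the group on the log2 scale. H2-T3, a thymus leukemia antigen chain, held 10.6 in control 2 and 45.2 in the nearest other control, a gap of 0.916 of the range.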

How the results depend on the processing

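All values here are log2 fold changes or counts of members called by limma, and where a value moved, the cause was not tested. The 0 calls at 4 days became 1 without an intensity trend, 3 with array weights, 1 with quantile normalization and 0 to 3 with a library left out, and 0 to 1 in luminal domains against basal tumors with a library left out (the call is H2-Ke6 without basal tumor 2). The median of members at 4 days was -0.30 without mutants 3 and 4, where sign changes were seen for Tapbp (-0.16), Psmb8 (-0.18), Psmb9 (-0.29), Psmb10 (-0.30), H2-Aa (-0.058), H2-Ab1 (-0.51), Cd74 (-0.0085), H2-DMa (-0.43), Nlrc5 (-0.54) and Ciita (-0.39). Other sign changes at 4 days were Tap2 with array weights (0.12) and a Y-linked term (0.25), Nlrc5 with that term (-0.067), and, in the table of 3 against 3 libraries, Erap1 (-0.035), Psmb8 (-0.071), Psmb9 (-0.18) and Psmb10 (-0.12). In luminal against basal tumors, signs changed with array weights for Tapbp (0.13) and Psmb9 (0.36), with quantile normalization (-0.25), upper-quartile scaling (-0.049) and 5 luminal libraries as 1 group (-0.12) for H2-K1, in the last also for Tapbp (0.14), and without basal tumor 2 and luminal tumor 2 for Tapbp (0.51), Psmb9 (0.84), Psmb10 (0.21), H2-Aa (0.68), H2-Ab1 (0.63), Cd74 (0.93), H2-DMb2 (0.96) and Ciita (0.16). In luminal domains against basal tumors H2-Ab1 was 0.044 with array weights and H2-Aa -0.15 with quantile normalization and -0.14 with upper-quartile scaling. Between domains H2-D1 was 0.069 with quantile normalization. The median of all genes moved from -0.11 to 0.021 under quantile normalization in luminal against basal tumors and from 0.0097 to -0.14 under upper-quartile scaling in luminal domains against basal tumors.

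With 1 library left out at a time, signs turned in 14 of 171 fits of a gene at 4 days, 19 of 114 in luminal against basal tumors, 23 of 114 in luminal domains against basal tumors and 17 of 120 between domains. In the 4-day comparison, log2 fold changes that turned ran from -0.030 to 0.66 for Ciita, -0.20 to 0.49 for Nlrc5, -0.085 to 0.18 for Psmb10, -0.035 to 0.36 for Psmb9 and -0.18 to 0.11 for Tap2. In luminal against basal tumors, log2 fold changes that turned ran from -1.52 to 0.33 for B2m, -0.16 to 1.59 for H2-D1, -0.88 to 1.11 for H2-K1, -1.86 to 0.43 for Psmb8, -1.42 to 1.41 for Psmb9, -1.87 to 0.56 for Tap1, -1.9 to 0.61 for Tap2 and -0.56 to 0.78 for Tapbp. In luminal domains against basal tumors, log2 fold changes that turned ran from -1.63 to 0.32 for B2m, -0.55 to 1.85 for Cd74, -1.36 to 2.57 for Ciita, -0.68 to 0.14 for Erap1, -0.83 to 1.43 for H2-Aa, -1.09 to 1.13 for H2-Ab1, -1.21 to 0.14 for H2-DMa, -2.74 to 0.069 for H2-DMb2, -0.57 to 1.41 for H2-K1, -1.54 to 0.94 for Psmb8, -1.72 to 1.11 for Psmb9, -0.71 to 1.72 for Tap1 and -0.013 to 2.47 for Tap2. Between domains, log2 fold changes that turned ran from -0.46 to 1.34 for B2m, -0.76 to 0.23 for Erap1, -1.02 to 0.52 for H2-D1, -0.44 to 0.86 for H2-K1, -0.12 to 1.2 for Psmb10, -0.87 to 1.67 for Psmb8, -0.25 to 2.04 for Psmb9, -0.57 to 1.32 for Tap1 and -0.81 to 0.80 for Tap2. The median over all members ran from -1.23 (without basal tumor 3) to 0.98 (without basal tumor 2) in luminal domains against basal tumors, from -1.49 (without basal tumor 3) to 0.31 (without basal tumor 2) in luminal against basal tumors, from -0.12 (without basal-like domain 3) to 1.53 (without luminal domain 3) between domains and from 0.0082 (without mutant 4) to 0.45 (without mutant 2) at 4 days. With a replicate block of domains with consecutive library codes, 0 members were called, and members under an unadjusted p of 0.05 went from 3 to 13 of the 30 that pass the filter on low values without the group in which they are higher. Over all 14874 genes the block called 1, and the share under that unadjusted p went from 5.09% to 12.5%. A block of balanced pairs cannot change the log2 fold changes, so their median (0.58) says nothing about stability. Between the other groups no paired analysis was possible because the columns carry library codes and not the replicate numbers of the labels. The Y-linked term could not be fitted in the 3 tumor comparisons, as all their libraries lay on the same side of its cut. Summed counts of the Y-linked genes ran from 4764 to 8667 there. The comparison of bladders after 1 month of BBN was not run. The number of reads is unknown, so no limit of detection can be given, and 3 libraries a group limit the precision of every tumor value.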

Other observations

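The domains of mixed lesions were compared by their class I heavy chains, as a description chosen after the values were seen. Over the 17 chains tested, with log2 values centered on the mean over the 6 libraries, the correlation between luminal and basal-like domains of the same number was 0.35 for those numbered 1, 0.60 for those numbered 2 and 0.89 for those numbered 3, and the correlations between domains of unlike number from luminal to basal-like lay between -0.61 and -0.19. Over the 14857 other genes tested, the same-number values were 0.074, 0.12 and 0.083, and those between unlike numbers lay between -0.40 and -0.20. Centering over few libraries lowers the values between unlike numbers. All points share the libraries and their normalization, genes are not independent replicates, and the labels do not say whether domains of the same number came from the same lesion or mouse.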
